A study of Rattus norvegicus with 48 samples.

Results

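The plasma samples taken 1 week after surgery were compared between strong and weak regenerators, 6 rats per group and therefore 12 of the 48 samples of the series, chosen by the week and the regeneration label of each sample. Male rats, aged 12 weeks at surgery (Sprague-Dawley in the methods of the study, Wistar elsewhere in its text), received a round full-thickness defect in the calvaria, the flat bone of the skull roof. Defects were left empty or filled with a collagen-hydroxyapatite (CHA) scaffold, either without additive, with a plasmid for BMP2 and miR-590-5p (gene-activated), or with extracellular vesicles of mesenchymal stromal cells. Group labels rest on the bone volume that microCT showed at the end of healing and not on what a rat received, and both groups shared surgery, anaesthesia and analgesia. Treatments were spread unevenly, with scaffolds without additive among strong regenerators alone and gene-activated scaffolds most frequent among weak regenerators. The treatment of each rat was not mapped here, so that treatment and healing cannot be told apart. Blood was drawn from the tail vein into K2-EDTA, and plasma small RNA was sequenced with a single-adapter ligation protocol.

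MicroRNAs (miRNAs) are short RNAs that are cut from the arms of a hairpin precursor (5p and 3p) and repress mRNAs that pair with their seed, bases 2 to 8. Cells release them in vesicles and protein complexes, and plasma holds a mixture that is dominated by blood cells, with smaller shares from muscle, liver, epithelia and vessels. In plasma, release from more cells and more release per cell cannot be told apart. Several miRNAs are known regulators of osteoblast differentiation, among them miR-133a, which represses Runx2, and the miR-204 and miR-211 pair, which does the same.

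The mature sequences of the miRNAs on which the comparison turned are given below from RefSeq (build GRCr8), 5′ to 3′ with the seed in capitals. RefSeq entries matched 583 of the 645 miRNAs in the counts and 270 of the 301 that had a mean of at least 10 RPM (miRNA reads scaled to 1e+06 per sample) at week 1. miR-335 and miR-150-5p are named without a sequence. The first 4 are the muscle miRNA miR-133a-3p with its family member, and the miRNAs with the smallest p among those higher in strong regenerators.
miR-133a-3p: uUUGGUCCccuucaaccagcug
miR-133b-3p: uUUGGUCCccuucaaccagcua
miR-503-5p: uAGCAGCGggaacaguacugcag
miR-27a-5p: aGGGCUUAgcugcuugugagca
The next set holds both arms of miR-143 and miR-145, which were among the miRNAs lower in strong regenerators.
miR-143-5p: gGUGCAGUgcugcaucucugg
miR-143-3p: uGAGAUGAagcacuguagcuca
miR-145-5p: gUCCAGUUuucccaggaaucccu
miR-145-3p: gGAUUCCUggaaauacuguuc
The last set holds miR-375-3p, an islet miRNA compared on its own, the seed pair miR-204-5p and miR-211-5p, whose members differed in sign, and miR-211-3p, which had the smallest p of all miRNAs.
miR-375-3p: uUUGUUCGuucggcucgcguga
miR-204-5p: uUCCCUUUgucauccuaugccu
miR-211-5p: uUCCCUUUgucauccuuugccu
miR-211-3p: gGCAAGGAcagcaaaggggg
miR-133a-3p and miR-133b-3p share a seed and nearly all other bases, and reads could be split between them in counting. The hairpins of miR-143 and miR-145 lie on the minus strand of chromosome 18, at 57371349 to 57371453 and 57369983 to 57370070, with 1278 bases between them.

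Strong regenerators had 516138 to 1586398 and weak regenerators 421685 to 1387379 miRNA reads per sample, and the limit set by 3 counts was 1.89 to 7.11 RPM. Totals, the number of miRNAs with a read (419 to 501 in strong, 409 to 476 in weak), the UniSp2 spike-in reads and the red cell ratio of miR-451-5p to miR-23a-3p differed by less than the spread between rats (exact permutation tests, two-sided, p between 0.470 and 0.673, adjusted p = 0.673 over 8 measures). The log2 red cell ratio was 2.52 ± 0.948 in strong and 2.82 ± 0.378 in weak regenerators (SD, n = 6 rats per group). One library stood apart. Weak rat 3 had 13 of the 301 miRNAs at more than 2-fold the level of every other rat, whereas the other 11 rats had between 0 and 1 such miRNAs. List medians, and the values of miRNAs in which rat 3 was far from the others, are given with and without this rat.

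At week 1, no miRNA passed an FDR of 0.05 between strong and weak regenerators among 593 tested (0%; edgeR quasi-likelihood test). An unadjusted p under 0.05 was found for 27 of the 593 (4.55%), 12 higher and 15 lower in strong regenerators, and the smallest FDR was 0.325. DESeq2 called 0 as well, with 8 of 589 at an unadjusted p under 0.05, and limma-voom called 0, with 3 of 287. Among the 301 miRNAs with a mean of at least 10 RPM, 8 had an unadjusted p under 0.05 (2.66%), 2 higher and 6 lower, and the 6 strong and 6 weak values overlapped for all 301 (0% apart). The median log2 fold change of these 301 was 0.04, with 177 higher and 124 lower in strong regenerators (58.8% higher, but 46.5% after scaling to spike-in reads), and 26 of them differed by more than 0.5 on the log2 scale. Without weak rat 3 the median was 0.08, with 197 higher and 104 lower (65.4% higher). The 95% interval of the fold change lay within 2-fold in either direction for 238 of the 301 (79.1%), so that for the remainder a difference of 2-fold was within the interval.

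**Figure D1:**
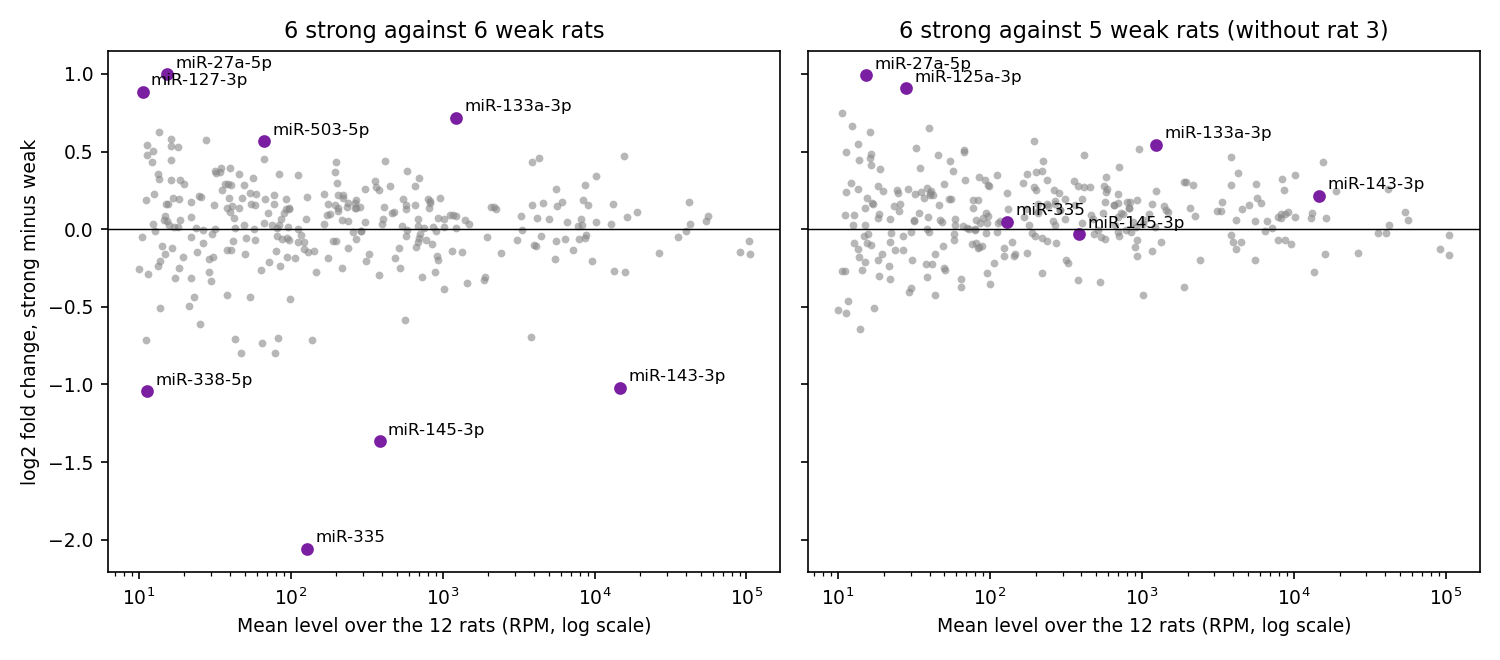
Log2 fold change (strong minus weak) of each of the 301 miRNAs against its mean level (RPM, log scale), with all 12 rats (left) and without weak rat 3 (right). The points far below 0 on the left, miR-335, miR-145-3p and miR-143-3p, lie near 0 on the right, while miR-27a-5p and miR-133a-3p stay above 0.

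Among the miRNAs with the smallest p of those higher in strong regenerators were miR-133a-3p of muscle, miR-150-5p of lymphocytes and miR-205 of skin, none past the FDR. miR-133a-3p, a miRNA of skeletal and heart muscle, lay between 453 and 2474 RPM in strong regenerators (median 1626) and between 341 and 1909 in weak (median 785). Strong rats 5 and 23 and weak rats 3, 6 and 7 were low, the other 7 rats were above 1000 RPM, and the groups overlapped over most of their range. Its log2 fold change was 0.72 (standard error 0.37, 95% interval -0.05 to 1.48, FDR = 0.839). By exact permutation over the 12 rats, the mean difference on the log2(RPM + 1) scale was 0.84 (two-sided p = 0.186, adjusted p = 0.673 over 8 measures; the smallest p possible is 0.00216).

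The other muscle miRNAs had fewer reads. miR-133b-3p lay between 3.76 and 25.8 RPM in strong (median 18.5) and between 2.37 and 23.3 in weak regenerators (median 8.90), with a log2 fold change of 0.63 (standard error 0.45, FDR = 0.839). miR-1-3p, which is transcribed together with miR-133a, ranged from 3.76 to 36.8 RPM in strong rats and from 0 to 38.9 in weak rats, with 0 reads in weak rat 7, where 3 reads would have been 7.11 RPM. The same rats were low for these miRNAs as for miR-133a-3p. All 4 muscle miRNAs with a mean of at least 10 RPM had a positive log2 fold change, with a median of 0.58 (0.36 without rat 3). For all 301 miRNAs the median was 0.04 (0.08 without rat 3). The summed level of the muscle list ranged from 490 to 2600 RPM in strong and from 378 to 2003 in weak regenerators. Of its 12 miRNAs in the counts, 0 had an unadjusted p under 0.05, and miR-133c and miR-206-5p had no read.

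miR-503-5p, a member of the X-linked miR-322 cluster with a role in cell cycle arrest, had the smallest p of this direction among the 301 miRNAs. It lay between 38.1 and 108 RPM in strong (median 83.7) and between 36.8 and 68.8 in weak regenerators (median 53.3). Strong rats 2, 17, 21 and 29 were above every weak rat, while strong rat 23 was below all weak rats except rat 3. The log2 fold change was 0.57 (standard error 0.24, unadjusted p = 0.0299 by edgeR, FDR = 0.839). Its other arm, miR-503-3p, had 0.04 (0.22). Of the 11 members of the cluster with a mean of at least 10 RPM, 4 were positive and 7 negative, with a median of -0.06. Without rat 3, 8 were positive and 3 negative, with a median of 0.13, beside 0.08 for all 301 miRNAs without this rat. When scaled by library size alone, 6 were positive and 5 negative. miR-27a-5p, the less abundant arm of a hairpin whose 3p arm is known from adipocyte and osteoblast differentiation, ranged from 7.75 to 33.7 RPM in strong and from 2.99 to 21.8 in weak regenerators, with medians of 21.04 and 7.01. These levels were 4 to 31 reads in strong and 2 to 18 in weak rats. Its log2 fold change was 1.00 (standard error 0.46, unadjusted p = 0.0416 by edgeR, FDR = 0.839), while the abundant arm miR-27a-3p (mean 5676 RPM) had 0.15 (0.21).

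miR-150-5p, a miRNA of mature lymphocytes, ranged from 7363 to 28847 RPM in strong (median 18456) and from 9049 to 17798 in weak regenerators (median 12809). Strong rats 2, 17 and 29 were above all weak rats, and strong rat 5 was below all of them. Its log2 fold change was 0.47 (standard error 0.26, FDR = 0.839). miR-146a-5p, an inhibitor of inflammatory signalling in leukocytes, had the same 3 strong rats above and the same strong rat below all weak rats, with 1280 to 7320 RPM in strong and 1783 to 5242 in weak regenerators. Its log2 fold change was 0.43 (0.31). Of the 10 leukocyte miRNAs, 9 were positive (8 after scaling to spike-in reads or by RLE), and the exception was miR-155-5p, a miRNA of activated lymphocytes and macrophages, at -0.25 (0.23). The median of the leukocyte list was 0.24 (0.14 without rat 3), and 0 of its members had an unadjusted p under 0.05.

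The epithelial list follows. miR-205, a miRNA of stratified epithelia, ranged from 2661 to 9574 RPM in strong and from 1997 to 6727 in weak regenerators (medians 4490 and 3147), with a log2 fold change of 0.46 (standard error 0.27). miR-203a-3p, which is typical of differentiating keratinocytes, had medians of 11775 and 8358 RPM and a log2 fold change of 0.34 (0.23). Strong rat 29 was highest for both, and the groups overlapped. Of 11 epithelial miRNAs with a mean of at least 10 RPM, 10 were positive, with a median of 0.17 (0.15 without rat 3) and 0 with an unadjusted p under 0.05. The other miRNAs among the 12 with the smallest p of this direction were miR-127-3p, miR-196b-5p, miR-125a-3p, miR-466b-5p, miR-339-3p, miR-181c-3p and miR-139-5p, and over the 12 the log2 fold change ranged from 0.35 to 1.00. miR-196b-5p, of a Hox gene cluster, had 0.43 (0.24), but miR-196a-5p and miR-196c-5p, which share its seed, had -0.07 (0.27) and 0.06 (0.44), and -0.11 and -0.045 without rat 3.

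**Figure D2:**
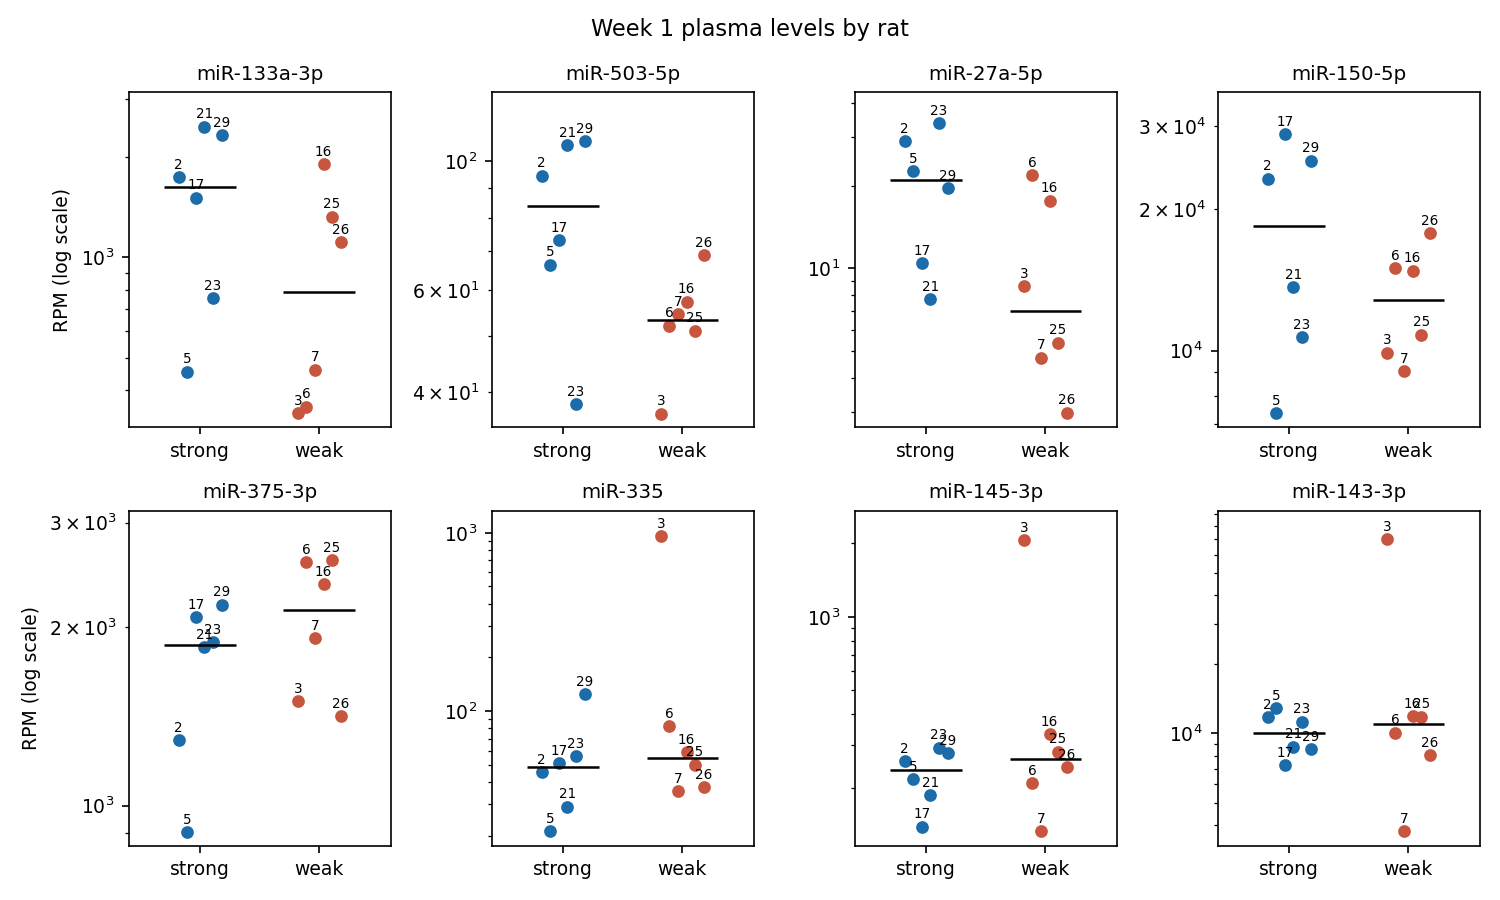
Week 1 level (RPM, log scale) of 8 miRNAs in each rat, with rat numbers, for 6 strong (blue) and 6 weak (red) regenerators; lines are group medians. Groups overlap in every panel, and weak rat 3 lies above all other rats for miR-335, miR-145-3p and miR-143-3p.

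Among miRNAs lower in strong regenerators, those with the smallest p rested largely on weak rat 3. Of all 301 miRNAs, 124 were lower with this rat and 104 without it. Weak rat 3 was the highest of the 12 rats for each of the 12 miRNAs with the smallest p in this direction, and 9 of the 12 were more than 2-fold above the next rat. miR-335, a miRNA from an intron of the imprinted gene Mest, was at 959 RPM in rat 3 and between 21.3 and 125 RPM in the other 11 rats. Medians were 48.4 RPM in strong and 54.5 in weak regenerators. Its log2 fold change of -2.06 (standard error 0.70, unadjusted p = 0.00737 by edgeR, FDR = 0.839) was 0.05 (0.33) without rat 3, and with limma-voom it was -0.92.

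miR-143 and miR-145, which are transcribed together in smooth muscle cells of the vessel wall, behaved alike in rat 3. miR-143-3p was at 70072 RPM, 7.01% of all miRNA reads of this sample, and between 3761 and 12854 RPM in the other rats. miR-145-3p was at 2066 RPM against 133 to 330, and miR-145-5p at 12090 against 2058 to 4936. miR-143-5p was at 172 RPM against 20.6 to 53.9. All 4 arms of both hairpins were thus highest in the same sample. The log2 fold changes of miR-145-3p (-1.36, standard error 0.51, unadjusted p = 0.0139 by edgeR, FDR = 0.839) and miR-143-3p (-1.02, 0.49) were -0.03 (0.24) and 0.22 (0.25) without rat 3.

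The remaining miRNAs more than 2-fold above the next rat in rat 3 were miR-676, miR-598-3p, miR-195-3p, miR-195-5p, miR-10a-3p, miR-10a-5p, miR-130a-3p and miR-338-5p. They include both arms of miR-10a, of a Hox gene cluster, and of miR-195, a member of the miR-16 seed family. miR-195-5p was at 278 RPM in rat 3 and between 14.2 and 118 in the other rats. The 13 miRNAs took 9.02% of the reads of rat 3 and between 0.722% and 1.87% of those of the other rats. This sample had the second highest total of the 12, at 1387379 reads, and the lowest share of UniSp2 reads, at 23.3 per 1000 miRNA reads beside 27.7 to 60.3 in the other rats. Its red cell ratio (2.74 on the log2 scale) lay within the range of the other rats, and the part of these values in the levels was not tested.

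Without rat 3, 0 miRNAs passed the FDR by edgeR, and an unadjusted p under 0.05 was found for 20. Of these, 4 belonged to the 301 miRNAs, all of them higher in strong regenerators. Without this rat, 65.4% of all 301 were higher. The log2 fold change without and with rat 3 was 0.91 (standard error 0.32) and 0.57 (0.33) for miR-125a-3p, and 0.57 (0.26) and 0.16 (0.32) for miR-99b-5p. It was 0.65 (0.31) and 0.40 (0.32) for miR-326-3p and 0.99 (0.48) and 1.00 (0.46) for miR-27a-5p. Of them, miR-99b-5p and miR-326-3p were singled out after their values were seen. miR-99b and miR-125a come from 1 cluster with let-7e. Of the 12 miRNAs lower in strong regenerators, 8 remained below 0 and 4 were above it, with a median of -0.06 in place of -0.76. Of the 12 higher ones, all 12 stayed above 0, with a median of 0.47 in place of 0.51. Both sets were chosen from fits that hold the remaining rats, so that keeping the sign was favoured in advance. Rat 3 was the lowest of the 12 rats for 5 of the higher ones.

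The lowest of the values without rat 3 was that of miR-338-5p, from an intron of the neuronal kinase gene Aatk, at -0.54 (-1.04 with all 12 rats). Without and with rat 3, miR-374-5p had -0.42 and -0.71, and miR-204-5p -0.37 and -0.73. miR-204-5p ranged from 22.5 to 82.6 RPM in strong and from 26.1 to 150 in weak regenerators, with a log2 fold change of -0.73 (standard error 0.36). Its seed partner miR-211-5p had the opposite sign, at 1.44 (0.66), from 28 reads over the strong and 8 over the weak rats.

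miR-375-3p, a miRNA of pancreatic islets and other endocrine cells, ranged from 903 to 2182 RPM in strong (median 1868) and from 1417 to 2593 in weak regenerators (median 2140). Strong rats 5 and 2 were the lowest of the 12 rats, weak rats 25 and 6 the highest, and the other 8 rats lay between 1417 and 2364 RPM. The log2 fold change was -0.32 (standard error 0.23, 95% interval -0.80 to 0.15, FDR = 0.839). By exact permutation, the mean difference on the log2(RPM + 1) scale was -0.30 (two-sided p = 0.277, adjusted p = 0.673 over 8 measures).

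miR-211-3p was the miRNA with the smallest p of all 593, and the single one whose groups did not overlap when low levels were included. It had 2, 1, 3, 4, 1 and 4 reads in the strong rats and 0 reads in each of the 6 weak rats. Taken over the groups, 15 reads were 2.68 RPM, and 0 reads allow up to 0.588 RPM (3 counts of the group total). The ratio of these is 4.55, and 2.55 with the lower 95% Poisson bound of the 15 pooled reads. This bound covers counting error only and not the spread between rats. Strong rats 2, 5 and 23 each had fewer than the 3 reads of the limit. The FDR was 0.325, with an unadjusted p under 0.05 (edgeR). At baseline, the same rats had 17 reads over the strong and 18 over the weak group, and at weeks 4 and 8 1 and 2 reads over the strong and 5 and 2 over the weak group. Such a p was found for 27 of all 593 miRNAs (4.55%, edgeR) and for 8 of the 301 at 10 RPM or more (2.66%), with 0.05 as the threshold. Of the other 19, which were under 10 RPM, 5 had no read in any weak rat and 4 none in any strong rat. Their counts over all 12 rats ranged from 4 to 85. How common a group without reads was among all miRNAs under 10 RPM was not counted.

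The other lists, of further cell types, tissues and clusters, had medians between -0.11 and 0.16, and no list had a member past the FDR. Platelet miRNAs, such as miR-191a-5p at 52313 to 57800 RPM in strong and 46544 to 60050 in weak regenerators, had a median of 0.16 (0.11 without rat 3), with 7 of 7 positive (6 after scaling to spike-in reads). Erythrocyte miRNAs had a median of -0.07 (-0.08 without rat 3), with 8 of 10 negative (7 when scaled by library size alone and 10 by RLE or spike-in reads). Their leading member, miR-451-5p, ranged from 63520 to 165594 RPM in strong and from 79867 to 148125 in weak regenerators, with strong rat 5 and weak rat 7 at the top of their groups. The summed level of the erythrocyte list was 288569 to 465875 RPM in strong and 357780 to 496342 in weak regenerators.

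Of the 23 miRNAs known from osteoblast differentiation with a mean of at least 10 RPM, 13 were positive and 10 negative, with a median of 0.07 (0.16 without rat 3) and 1 with an unadjusted p under 0.05, which was miR-335. With scaling to spike-in reads, 9 were positive. miR-21-5p, an abundant miRNA induced in tissue injury, ranged from 22554 to 56757 RPM in strong and from 21919 to 50599 in weak regenerators, and miR-29a-3p, a regulator of collagen and matrix genes, had a log2 fold change of 0.11 (standard error 0.23), and 0.25 without rat 3. The cartilage list had a median of 0.07 (0.05 without rat 3), with miR-140-3p, a miRNA of chondrocytes, at medians of 57048 and 54101 RPM. Several medians near 0 turned in sign without rat 3, from -0.11 to 0.05 for the vascular list, from -0.01 to 0.20 for liver, from 0.01 to -0.07 for nervous tissue, from 0.08 to -0.08 for the Dlk1-Dio3 imprinted cluster, from -0.03 to 0.06 for the let-7 family and from 0.00 to -0.02 for miR-17-92 and its paralogues. That of the 2 islet and endocrine miRNAs was -0.04, and -0.07 without rat 3. For all 301 miRNAs it was 0.04, and 0.08 without rat 3. The 2 vascular miRNAs with an unadjusted p under 0.05 were miR-143-3p and miR-145-3p.

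**Figure D3:**
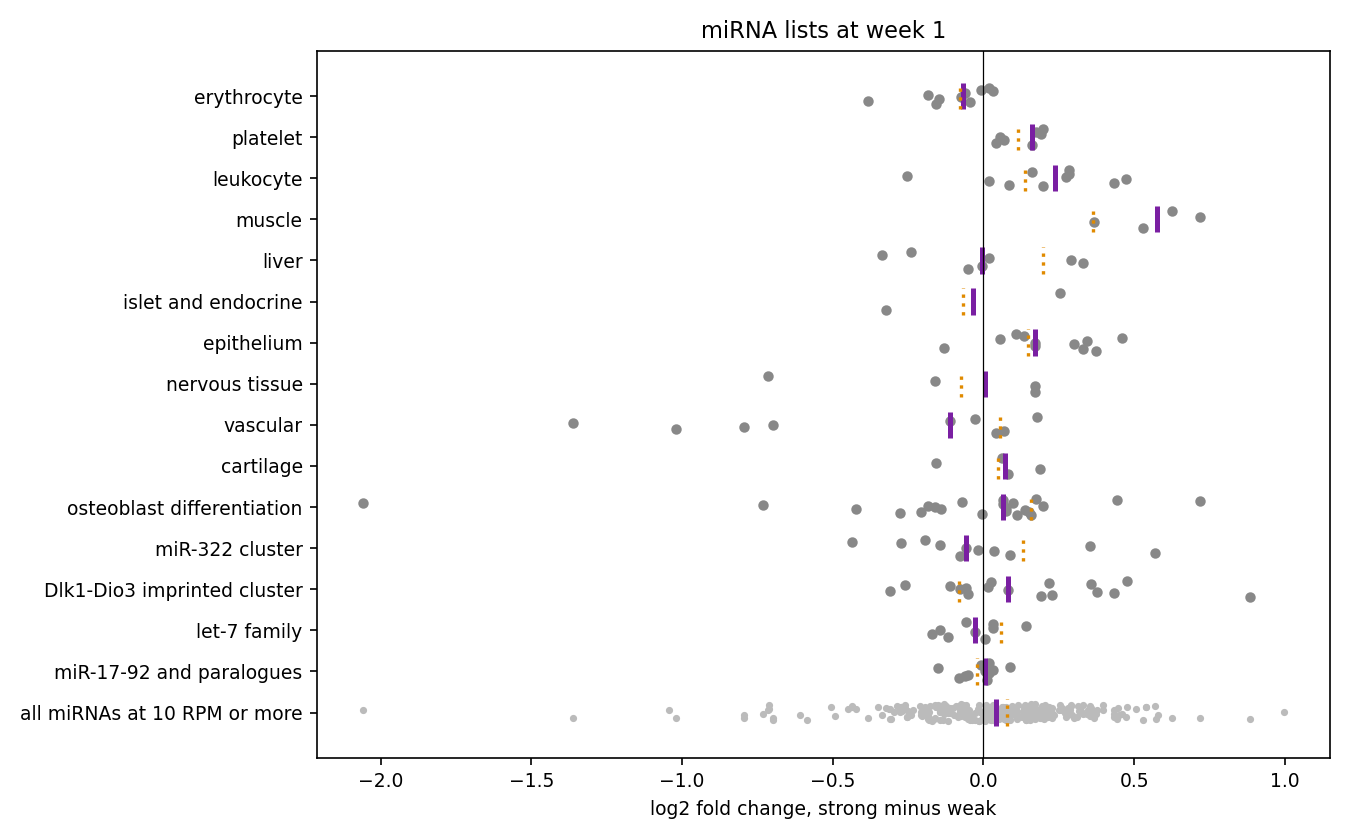
Log2 fold change (strong minus weak) at week 1 of the members of 15 miRNA lists with a mean of at least 10 RPM (grey points), beside all 301 such miRNAs. Solid purple bars are medians over all 12 rats and dotted orange bars medians without weak rat 3; the muscle list has the highest median (0.58, and 0.36 without rat 3).

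The main axes of variation had rats of both groups at each end or rested on 1 rat. The first principal component of the 301 miRNAs held 29.1% of the variance and separated weak rat 7 (score 10.4) and strong rat 5 (8.23) from strong rats 29 (-8.27) and 21 (-4.18). Its high end held miR-451-5p, miR-451-3p and miR-144-5p, miRNAs of red blood cells, and its low end miR-1-3p, miR-133b-3p, miR-133a-3p and the liver miRNA miR-122-5p. Over the 12 samples, which share the same read totals as denominators, the score had a correlation of 0.855 with the summed erythrocyte list, -0.944 with the osteoblast, -0.892 with the epithelial, -0.843 with the platelet, -0.821 with the liver, -0.791 with the leukocyte and -0.703 with the muscle list. The muscle, leukocyte and epithelial lists described above thus moved with this axis, and its part in their values was not tested. The second component held 21.5% of the variance, with rat 3 at 12.2 and the next rat at 3.42. The mean score of strong minus weak regenerators was -2.17 on the first and -1.67 on the second component, less than the spread between rats (exact permutation tests, two-sided, adjusted p = 0.673 for both).

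**Figure D4:**
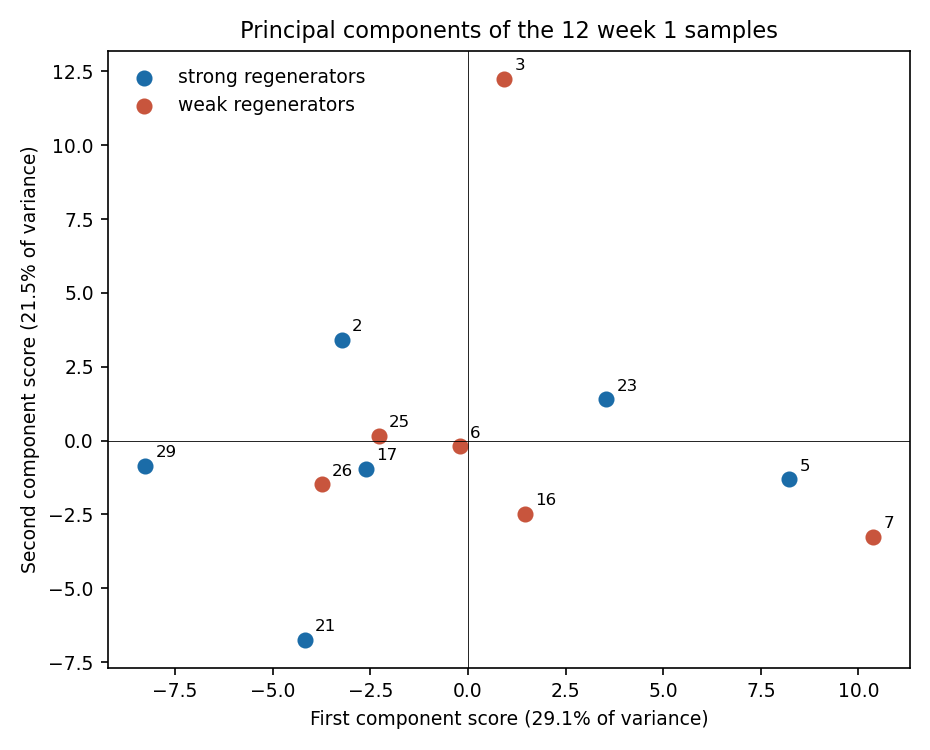
First against second principal component score (percent of variance in the axis labels) of the 12 week 1 samples, from log2(RPM + 1) of 301 miRNAs, with rat numbers. Strong (blue) and weak (red) regenerators are mixed along the first axis, and weak rat 3 stands alone on the second.

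The change from baseline to week 1 addressed whether the early response to surgery differed. It was fitted as a difference of group means, without pairing the samples of a rat, except where the rat is named as a block. No miRNA passed the FDR for a difference of this change between the groups among 620 tested (0%; edgeR), and 27 had an unadjusted p under 0.05, with a smallest FDR of 0.836. DESeq2 called 0 as well, with 13 at such a p. The smallest p among miRNAs with a mean of at least 10 RPM belonged to miR-494-3p, of the Dlk1-Dio3 imprinted cluster, with a difference in change of 1.68 on the log2 scale (standard error 0.59). Its level was lower at week 1 than at baseline in 6 of 6 weak rats and in 3 of 6 strong rats. At week 1 its medians were 12.2 RPM in strong and 9.22 in weak regenerators, and at baseline 9.89 and 17.3. All 17 members of the Dlk1-Dio3 cluster with a mean of at least 10 RPM, of 51 in the counts, had a positive difference in change, with a median of 0.74 (0.63 without rat 3) and 1 with an unadjusted p under 0.05. Of all 301 miRNAs, 161 were positive (53.5%) and 10 had such a p (3.32%), but 20 with the rat as a block. At week 1 alone, 11 of the 17 members were positive (8 without rat 3), with a median of 0.08, beside -0.75 at baseline. The members belong to 1 cluster and share the libraries, so that they are not independent. Epithelial miRNAs were positive in 11 of 11, with a median of 0.44 (0.26 without rat 3), and muscle miRNAs negative in 4 of 4, with a median of -0.66 (-0.22 with the rat as a block). Differences between the groups had medians of -0.27 at baseline and 0.17 at week 1 for the epithelial list. For the muscle list they were 1.21 and 0.58.

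Members of the let-7 family, which restrain growth in many differentiated cells, had negative values in this comparison. let-7c-5p was lower at week 1 than at baseline in 6 of 6 strong rats and in 2 of 6 weak rats. In strong regenerators it lay between 894 and 2064 RPM at baseline and between 351 and 1365 at week 1, and in weak regenerators between 673 and 1291 and between 550 and 1599. The difference in change was -0.98 (standard error 0.37, FDR = 0.836) for let-7c-5p, -0.89 (0.36) for let-7b-5p and -0.88 (0.36) for let-7a-5p. With the rat as a block, the value of let-7c-5p was -1.03 (FDR = 0.102), the smallest FDR of that fit together with miR-125b-5p, which was named after its value was seen. All 9 members of the family were negative, also under other scaling and without rat 3, with a median of -0.53 beside 0.05 for all 301 miRNAs, and they share a seed and much of their sequence. At week 1 alone, the family had a median of -0.03 (0.06 without rat 3), beside 0.67 at baseline. miR-195-5p had a difference in change of -1.52 (0.57) and was lower at week 1 than at baseline in 6 of 6 strong and 3 of 6 weak rats, but its value was -0.86 (0.47) without rat 3. This comparison shares the week 1 samples with the first, and for let-7c-5p the log2 fold change between the groups was 0.79 at baseline and -0.17 at week 1 (-0.07 without rat 3).

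Beside the other time points, each compared within itself, the week 1 differences were as follows. In the order baseline, weeks 1, 4 and 8, the log2 fold changes of miR-133a-3p were 1.51, 0.72, 0.70 and 0.94, and those of miR-375-3p -0.72, -0.32, -0.17 and -0.45. Both kept their sign. The study singled them out by comparing the groups over all time points, these samples included, so that this was favoured in advance. The medians of miR-133a-3p in strong and weak regenerators were 1957 and 1086 RPM at baseline and 1626 and 785 at week 1. Of the 12 miRNAs with the smallest p among those higher in strong regenerators at week 1, 10 were also above 0 at baseline, 5 at week 4 and 8 at week 8. Of the 12 lower ones, 4 were above 0 at baseline, 5 at week 4 and 0 at week 8. These counts come from the same rats. Over all 301 miRNAs, the median log2 fold change was near 0 at each of these times (-0.03 at baseline, 0.02 at week 4 and -0.004 at week 8). miR-335 had log2 fold changes of -0.01, -2.06, -0.19 and -1.54, and miR-145-3p of -0.17, -1.36, 0.06 and -1.37.

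At week 8, the negative values of miR-335 and miR-145-3p went with high levels in another weak rat. Rat 26 had 50833 RPM of miR-143-3p, 1758 of miR-145-3p and 178 of miR-335 at week 8, but 8036, 242 and 37.4 at week 1. Rat 3 had 7869 RPM of miR-143-3p at week 4 and 4176 at week 8, and for miR-335 58.3 at baseline, 69.0 at week 4 and 11.6 at week 8. At baseline, the highest levels of these 3 miRNAs were those of weak rat 25, at 31671, 693 and 147 RPM. The highest values were thus found in a different weak rat at baseline, week 1 and week 8, but not always in that rat alone. At week 8, weak rat 16 was second for all 3, at 19972, 718 and 70.5 RPM, and strong rat 21 had 19153 RPM of miR-143-3p. At baseline, weak rat 3 had 22413 RPM of miR-143-3p. At week 4, strong rat 29 was highest for miR-335, at 74.8 RPM. Weak rat 25, the highest at baseline, was again highest at week 4 for miR-143-3p and miR-145-3p, at 11638 and 308 RPM. The levels of 8 miRNAs, namely miR-335, miR-145-3p, miR-143-3p, miR-676, miR-598-3p, miR-10a-3p, miR-10a-5p and miR-130a-3p, in rat 3 at week 1 were above those of all 47 other samples of the series.

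**Figure D5:**
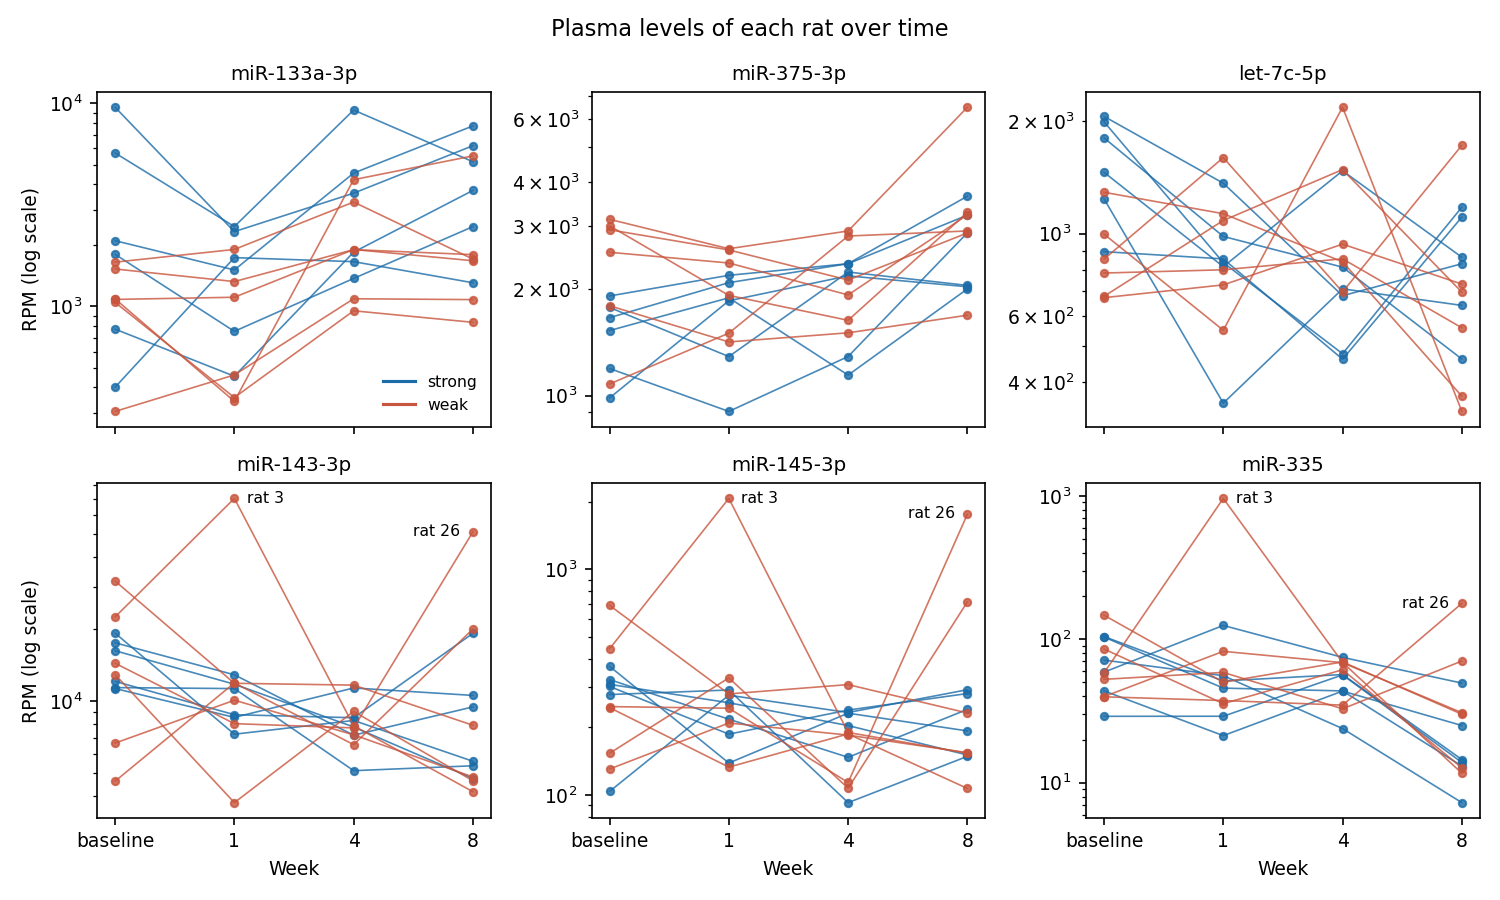
Level (RPM, log scale) of 6 miRNAs in each of the 12 rats at baseline and at weeks 1, 4 and 8 (evenly spaced), with strong regenerators in blue and weak in red. Levels of miR-143-3p, miR-145-3p and miR-335 peak in weak rat 3 at week 1 and in weak rat 26 at week 8.

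The arms of a hairpin are cut from the same precursor, which gives a check within samples. For 73 hairpins both arms had a mean of at least 10 RPM, and the sign of the log2 fold change was the same in 47. The median difference between arms was 0.17 on the log2 scale. Across these hairpins, which are not independent replicates and share the libraries, Pearson's r between the arms was 0.61. It was 0.51 without the hairpins of miR-143 and miR-145, and 0.30 without rat 3. The sign was the same in 51 of the 73 without this rat. Of the 301 miRNAs, 58.8% were positive (65.4% without rat 3), so that unrelated miRNAs also often share a sign.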

How the data were processed

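Plasma small RNA of 12 rats was sequenced at 4 time points. The authors checked reads with FastQC 0.11.9 and MultiQC 1.10, trimmed them with cutadapt 3.3, aligned them with Bowtie 1.3.0 and mapped them with miRDeep2 to the rat genome (Rnor.6.0; the labels list GRCh38.p12) and to miRBase. The deposited values are raw, unnormalized counts of 645 mature miRNAs, with 3 spike-ins beside them. Each sample was mapped by animal and week, and baseline samples took the group of their animal. The members and lists were chosen with earlier results of these data known.

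RPM is the count divided by the miRNA total of a sample, times 1e+06. Counts were tested with edgeR 4.0.16 (R 4.3.3; quasi-likelihood test by the method of edgeR 3, TMM, Benjamini-Hochberg FDR under 0.05) with an independent filter on mean level, which removed none of the 593 miRNAs with a read at week 1. The week 1 test used the 12 week 1 samples. The change from baseline used the 24 baseline and week 1 samples as group means, without a term for the rat. Exact permutation tests of single values used all assignments of the 12 rats to the groups (scipy 1.17.1), two-sided. Each rat is a separate animal. Named are the 12 miRNAs with the smallest p in each direction at a mean of at least 10 RPM, miR-133a-3p, miR-375-3p, leading members of 15 lists, and other arms and seed partners of these. The tests were first checked on simulated data. Replicate samples differed by far more than counting error (chi-square per degree of freedom of at least 49.6), so none was treated as a copy. A shared number marks one animal at different weeks. Over 301 miRNAs, a rat's baseline and week 1 deviations from the group mean correlated at 0.23 on average (11 of 12 rats over 0.1), beside -0.05 for different rats. Alternatives were RLE, library size or spike-in scaling, other filters, DESeq2 1.42.0, limma-voom 3.58.1, the edgeR 4 method, all 48 samples, the rat as a block, other pseudocounts and each rat left out. Reads carried no stated molecular identifiers. Poisson bounds and the limits of 3 counts cover counting error only, whereas the edgeR standard errors and intervals include the spread between rats.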

Additional observations from a re-analysis of the deposited data

Results flagged for a closer look

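In groups of 6 rats, the gap between the most extreme rat and its nearest neighbour, divided by the range of the group, singled out 8 of the named miRNAs and measures at week 1. Chance gives about 1 in 20 groups, and over all 301 miRNAs 36 of 602 groups (5.98%) were singled out, 11 of them by weak rat 3 and 9 by strong rat 21. Weak rat 3 was far above the other weak rats for miR-335 (gap over range 0.748), miR-145-3p (0.669), miR-10a-3p (0.741) and the second principal component score (0.779). Weak rat 7 was far above them on the first component (0.632), at the end of red blood cell miRNAs. This rat also had the lowest total count of the 12, at 421685 reads, and the part of depth in its score was not tested. Among strong regenerators, rat 5 was highest for miR-181c-3p at 125 RPM (0.804) and for miR-128-3p, a miRNA of neurons that blood cells also contain, at 9635 RPM (0.717). Strong rat 21 was lowest for miR-7a-5p, a miRNA of endocrine cells, at 15.5 RPM (0.636). No miRNA of the 301 had all strong rats changed one way and all weak rats the other way from baseline to week 1.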

How the results depend on the processing

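Under each alternative for the week 1 comparison and for the change from baseline, 0 miRNAs passed the FDR. At week 1, the number with an unadjusted p under 0.05 ranged from 3 (limma-voom) to 32 (all 48 samples) and, with each rat left out, from 20 to 39; for the change it ranged from 6 to 28 and from 20 to 34. Fewer miRNAs were tested and had such a p with limma-voom (3 of 287), filterByExpr (4 of 288), a minimum of 10 RPM (5 of 301) and DESeq2 (8 of 589). The main test had 27 of 593, and 8 among the 301 with a mean of at least 10 RPM. Samples were paired by rat. At week 1, the fit with the rat as a replicate block used limma-voom on all 48 samples. Of 329 miRNAs, 0 passed (6 with an unadjusted p under 0.05, smallest FDR 0.993). For the change, the block was an edgeR fit with a term for each rat, and 0 of 620 passed (25, smallest FDR 0.102). The replicate block thus changed no call. The week 1 log2 fold change of miR-335 was -0.92 and that of miR-143-3p -0.36 with limma-voom. They were -0.92 and -0.41 with the replicate block, which at week 1 was also a limma-voom fit. Why limma-voom gave values closer to 0 than edgeR was not tested.

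With each rat left out in turn, the difference between the groups changed sign for UniSp2 reads (-0.037 to 0.21 on the log2 scale), detected miRNAs (-0.90 to 16.1) and total count (-0.034 to 0.31 on the log2 scale). The same held for the log2 fold changes of miR-335 (-2.53 to 0.048), miR-143-3p (-1.23 to 0.22), miR-143-5p (-0.98 to 0.060), miR-195-5p (-1.14 to 0.0022), miR-451-5p (-0.43 to 0.00026), miR-191a-5p (-0.0063 to 0.11), miR-192-5p (-0.092 to 0.32), miR-802-5p (-0.013 to 0.83), miR-128-3p (-0.040 to 0.29), miR-140-5p (-0.037 to 0.30), let-7i-5p (-0.10 to 0.17), let-7c-5p (-0.37 to 0.0063), let-7g-5p (-0.12 to 0.31), miR-92a-3p (-0.043 to 0.10) and miR-106b-5p (-0.032 to 0.22). Scaling to UniSp2 reads reversed miR-191a-5p (-0.016), miR-192-5p (-0.12), miR-322-3p (-0.023), let-7i-5p (-0.019) and miR-92a-3p (-0.035). RLE reversed miR-192-5p (-0.0153), let-7i-5p (-0.00334) and miR-92a-3p (-0.000258), and DESeq2 the same 3 (-0.0153, -0.00334 and -0.000263). A minimum of 10 RPM reversed miR-192-5p (-0.000326), limma-voom let-7i-5p (-0.00504), and the replicate block let-7i-5p (-0.041) and miR-92a-3p (-0.010). The other 546 values of named miRNAs under alternatives that kept all rats had the direction of the main value, with none past the FDR. With 6 rats per group, the median standard error of 0.27 limits what could be called, and miRNAs under the limit of 3 counts (1.89 to 7.11 RPM) could not be told from absent ones.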
